A study of Danio rerio with 12 samples.

Results

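Calcium release channels of the ryanodine receptor and IP3 receptor families were followed at the mRNA level in whole eyes of adult zebrafish. Every gene whose name in the table was RYR2, or ryr or itpr followed by 1, 2 or 3 and an optional a or b, was taken, which gave 9 of 25432 genes: 5 ryanodine receptor genes (RYR2, ryr2b, ryr1a, ryr1b and ryr3) and 4 IP3 receptor genes (itpr1a, itpr1b, itpr2 and itpr3). The set was chosen by measured values, the FPKM of RYR2 in these same eyes, which was lower in mutant eyes with little spread. Its difference between genotypes is therefore given as a description, with no test. The study made a zebrafish line without working Akr7a3, an aldo-keto reductase that clears reactive aldehydes such as acrolein, to ask what the loss of this enzyme does to vessels and metabolism. Here 6 akr7a3+/+ eyes were compared with 6 akr7a3-/- eyes. Both genotypes derived from the Tg(fli1:EGFP) line, in which a fluorescent protein is made in endothelial cells, and the mutant allele is a CRISPR/Cas9 insertion in exon 1 that brings a premature stop codon. It is 1 allele, present in all cells. The fish were adult, with no age or sex given in the sources used here, and nothing states whether the eyes came from separate animals, so p-values measure the spread between these eyes.

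Ryanodine receptors and IP3 receptors are large channels in the membrane of the endoplasmic reticulum, or of the sarcoplasmic reticulum in muscle, and let stored calcium out into the cytoplasm. Ryanodine receptors open when calcium rises nearby, or, in skeletal muscle, when the L-type calcium channel of the surface membrane moves with voltage. IP3 receptors need inositol trisphosphate, which phospholipase C makes after a surface receptor is stimulated. In mammals RYR1 is the release channel of skeletal muscle, RYR2 that of the heart and a main form in brain, and RYR3 a minor form in several tissues, while ITPR1 is the chief neuronal IP3 receptor and ITPR3 is typical of epithelial and secretory cells. A whole eye holds retina, lens, cornea and pigment epithelium, and skeletal muscle where eye muscles stay attached, so both muscle and neurons can supply these transcripts. In such bulk samples fewer cells of a type and less RNA per cell cannot be told apart.

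Expression is given as FPKM, fragment counts scaled to gene length and to library size, which lets genes be compared with each other. Library totals, worked out from the steps of the FPKM values, ran from 21194609 to 35016388 reads. A member had between 11 and 5640 reads in an eye. akr7a3 itself lay between 1.35 and 2.65 FPKM in the akr7a3+/+ eyes and between 0.267 and 0.414 FPKM in the akr7a3-/- eyes, which is the direction of the labels. Retinal markers were abundant, and rho, the rod opsin, averaged 18011 ± 4304 FPKM in wild-type and 25140 ± 2631 FPKM in mutant eyes (SD, n = 6 each). Lens crystallins stood apart in akr7a3-/- eye 1, where the lens marker list summed to 185 FPKM against 3714 to 13731 FPKM in the other 11 eyes.

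In the akr7a3+/+ eyes the most abundant release channel was itpr1b, a zebrafish copy of the neuronal IP3 receptor, at 11.1 ± 0.583 FPKM (SD, n = 6). RYR2 came next at 6.61 ± 0.244 FPKM. Then followed ryr1a (3.30 ± 0.486), itpr3 (2.92 ± 1.90), itpr2 (2.61 ± 0.309), itpr1a (2.41 ± 0.525), ryr1b (2.11 ± 0.358) and ryr3 (1.197 ± 0.146), all in FPKM. ryr2b was close to undetected, at 0.108 ± 0.0643 FPKM and 11 to 149 reads an eye. Of the 8 neighbouring pairs in this order, 4 held in 6 of 6 akr7a3+/+ eyes, namely itpr1b over RYR2, RYR2 over ryr1a, ryr1b over ryr3 and ryr3 over ryr2b. An exact sign-flip test of the paired differences, two-sided, gave p = 0.0313 for ryr1b over ryr3 and for ryr3 over ryr2b. That is the smallest that 6 eyes allow, and the 0.0625 after adjustment over the 8 pairs misses 0.05. The neighbours from ryr1a down to ryr1b did not differ beyond their spread (exact adjusted p from 0.200 to 0.750). Pairs with RYR2 entered that adjustment but are given without a test, since they rest on values used to choose it. The order was taken from the means of these same 6 eyes, so the tests do not check it independently. The same 4 orders held in 6 of 6 akr7a3-/- eyes, whereas ryr1a was above itpr3 in 4 of 6 akr7a3+/+ eyes and 1 of 6 akr7a3-/- eyes.

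**Figure D1:**
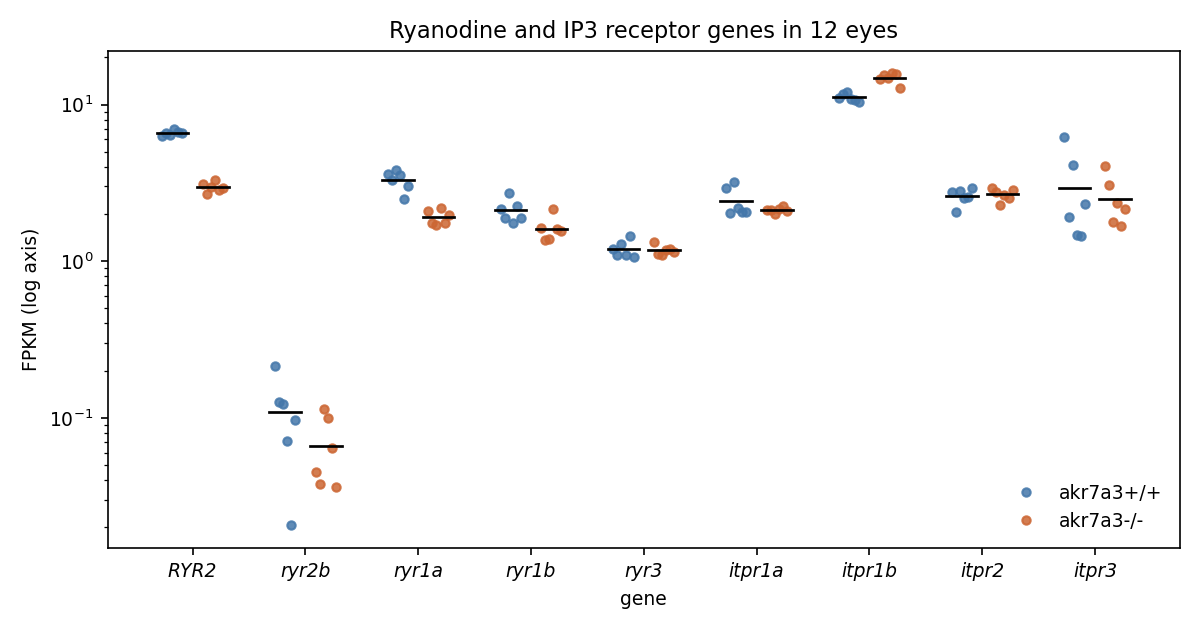
FPKM (log axis) of the 9 release channel genes in each of 12 eyes, blue for akr7a3+/+ and orange for akr7a3-/-, with black lines at the group means. RYR2 and ryr1a are lower and itpr1b is higher in akr7a3-/- with no overlap between genotypes, while itpr3 spreads from 1.44 to 6.22 FPKM within akr7a3+/+ alone.

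RYR2 (ENSDARG00000098856) was measured at 6.32, 6.59, 6.42, 7.02, 6.72 and 6.58 FPKM in akr7a3+/+ eyes 1, 2, 3, 4, 6 and 7. In akr7a3-/- eyes 1, 4, 5, 7, 8 and 9 it was at 3.10, 2.70, 2.99, 3.27, 2.85 and 2.91 FPKM. The genotypes did not overlap, and the highest mutant eye lay well under the lowest wild-type eye. The mean went from 6.61 ± 0.244 to 2.97 ± 0.201 FPKM (SD, n = 6 each), a difference of -55.1%, or -1.04 (SE 0.060) on the log2(FPKM + 0.5) scale. The spread was narrow in both groups, with a coefficient of variation of 3.69% in akr7a3+/+ and 6.76% in akr7a3-/-. These are the values that led to the gene being chosen. The table pairs this identifier with the human-style symbol RYR2, and the annotation used here, of another assembly, lists a ryr2a and a ryr2b without linking the identifier to either, so it is called RYR2 throughout. The other heart-type gene, ryr2b (ENSDARG00000003706), was too low to pass the filter on low values and was not tested. It ranged from 0.0206 to 0.213 FPKM in akr7a3+/+ and from 0.0363 to 0.114 FPKM in akr7a3-/- eyes, which overlap.

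Over all genes tested, 11.5% differed between genotypes at an adjusted p under 0.05 (limma, Benjamini-Hochberg over 18473 genes), 5.78% higher and 5.77% lower in akr7a3-/-. In 6.62% the genotypes did not overlap, 3.55% with the mutant eyes higher and 3.06% with them lower. Among the 7 release channel genes tested other than RYR2, 2 differed, ryr1a lower and itpr1b higher, and those 2 were also the ones without overlap. With 7 genes this count is too small to set against the share over all genes.

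ryr1a (ENSDARG00000011422), one of a pair of zebrafish genes for the skeletal muscle release channel, was lower in the mutant. Its FPKM in akr7a3+/+ eyes 1, 2, 3, 4, 6 and 7 was 3.63, 3.27, 3.83, 3.53, 2.49 and 3.03, and in akr7a3-/- eyes 1, 4, 5, 7, 8 and 9 it was 2.08, 1.75, 1.69, 2.17, 1.76 and 1.96. No mutant eye reached the lowest wild-type eye, akr7a3+/+ eye 6. The mean went from 3.30 ± 0.486 to 1.90 ± 0.196 FPKM (SD, n = 6 each), and the log2 fold change was -0.65 (SE 0.099, 95% interval -0.87 to -0.44, limma adjusted p = 0.00107, exact permutation p = 0.00216, the smallest that 6 against 6 eyes allow).

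ryr1b (ENSDARG00000023797), the second gene of that pair, is the one mutated in a slow-swimming zebrafish strain. It was at 2.15, 1.88, 2.73, 1.75, 2.26 and 1.89 FPKM in akr7a3+/+ eyes 1, 2, 3, 4, 6 and 7 and at 1.62, 1.37, 1.38, 2.15, 1.61 and 1.55 FPKM in akr7a3-/- eyes 1, 4, 5, 7, 8 and 9. The groups overlapped through akr7a3-/- eye 7 alone, since the next highest mutant eye, at 1.62 FPKM, lay under the lowest wild-type eye at 1.75 FPKM. The log2 fold change was -0.31 (SE 0.11, 95% interval -0.55 to -0.062), which did not pass over all genes (limma adjusted p = 0.102) although the exact permutation test of the gene by itself gave p = 0.0216. Without akr7a3-/- eye 7 the log2 fold change was -0.37 and the limma adjusted p 0.0433, and leaving out each other eye in turn gave no call.

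ryr3 (ENSDARG00000071331), the minor form in mammals, had nearly the same mean in both genotypes. It was lowest at 1.07, median 1.14 and highest at 1.44 FPKM in akr7a3+/+, against 1.102, 1.16 and 1.32 FPKM in akr7a3-/-. The mutant range lay wholly inside the wild-type range. The log2 fold change was -0.017 (SE 0.083, limma adjusted p = 0.924), and its 95% interval, -0.20 to 0.16, leaves out a change of the size of that of RYR2 or ryr1a.

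The summed ryanodine receptor mRNA and its make-up differed as follows. Summed over the 5 genes it was 13.3 ± 0.626 FPKM in akr7a3+/+ and 7.72 ± 0.683 FPKM in akr7a3-/- (SD, n = 6 each). RYR2 made up 49.7 ± 3.22% of the sum in akr7a3+/+ and 38.5 ± 1.40% in akr7a3-/-. The share of ryr3 was 8.99 ± 1.097% and 15.3 ± 1.08%, that of ryr1b 15.8 ± 2.15% and 20.7 ± 1.91%, and that of ryr1a 24.7 ± 2.87% and 24.6 ± 1.02%. RYR2 was the largest contributor to the sum in all 12 eyes. These shares contain RYR2 and were not tested.

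Among the IP3 receptors, itpr1b (ENSDARG00000074149) was higher in the mutant. In akr7a3+/+ eyes 1, 2, 3, 4, 6 and 7 it was at 10.9, 11.6, 11.96, 10.9, 10.7 and 10.4 FPKM. In akr7a3-/- eyes 1, 4, 5, 7, 8 and 9 it was at 14.5, 15.3, 14.7, 15.8, 15.7 and 12.8 FPKM. The genotypes did not overlap, and akr7a3-/- eye 9 was the mutant eye closest to wild type. The mean was 11.1 ± 0.583 against 14.8 ± 1.11 FPKM (SD, n = 6 each), 33.5% more, and the log2 fold change was 0.40 (SE 0.062, 95% interval 0.27 to 0.53, limma adjusted p = 0.00127, exact permutation p = 0.00216). In the GRCz12tu annotation itpr1b lies on chromosome 11, as does akr7a3 itself. Of the 537 tested genes assigned to that chromosome by name 79 differed between genotypes, or 14.7%. Over all 18473 tested genes, of which 84.5% had a chromosome assigned, the share was 11.5%. The distance between itpr1b and akr7a3 was not determined. Strain differences carried along near the mutated gene and an effect of the mutation cannot be told apart for a gene on that chromosome. Of the 9 members, 8 were matched to that annotation by name. RYR2 was not linked to a gene there, so whether it lies on chromosome 11 was not determined.

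The other gene of the pair, itpr1a (ENSDARG00000014655), did not pass the test. Its lowest, median and highest values were 2.03, 2.11 and 3.21 FPKM in akr7a3+/+ and 1.99, 2.12 and 2.25 FPKM in akr7a3-/-. The medians lay side by side, and akr7a3+/+ eyes 1 and 3, at 2.93 and 3.21 FPKM, stood above all other eyes. The log2 fold change was -0.13 (SE 0.11, 95% interval -0.37 to 0.10, limma adjusted p = 0.473).

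itpr2 (ENSDARG00000011909), in mammals the main form of astrocytes and heart muscle cells, ranged from 2.06 to 2.93 FPKM in akr7a3+/+ with a median of 2.67, and from 2.30 to 2.92 FPKM in akr7a3-/- with a median of 2.71. Both ranges nearly coincided, and the log2 fold change was 0.030 (SE 0.087, 95% interval -0.16 to 0.22, limma adjusted p = 0.867).

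itpr3 (ENSDARG00000061741), the epithelial form, varied more from eye to eye than the other 3 IP3 receptor genes in both genotypes. It was at 6.22, 1.92, 4.12, 1.48, 1.44 and 2.31 FPKM in akr7a3+/+ eyes 1, 2, 3, 4, 6 and 7 and at 4.05, 3.04, 1.77, 2.35, 1.69 and 2.15 FPKM in akr7a3-/- eyes 1, 4, 5, 7, 8 and 9. High and low eyes occurred in both genotypes, with coefficients of variation of 65.0% and 35.9%. The log2 fold change of -0.071 carried an SE of 0.30 and a 95% interval of -0.73 to 0.58 (limma adjusted p = 0.914), so a difference as large as that of itpr1b or ryr1b would not be detectable for this gene.

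As a family the IP3 receptors summed to 19.0 ± 2.71 FPKM in akr7a3+/+ and 22.1 ± 1.48 FPKM in akr7a3-/- (SD, n = 6 each). itpr1b supplied 59.1 ± 6.97% of that sum in akr7a3+/+ and 67.0 ± 3.78% in akr7a3-/-. In every eye the IP3 receptor sum was above the ryanodine receptor sum, by ranges of 16.8 to 22.8 against 12.7 to 14.4 FPKM in akr7a3+/+ and of 19.9 to 23.6 against 6.97 to 8.87 FPKM in akr7a3-/-.

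**Figure D2:**
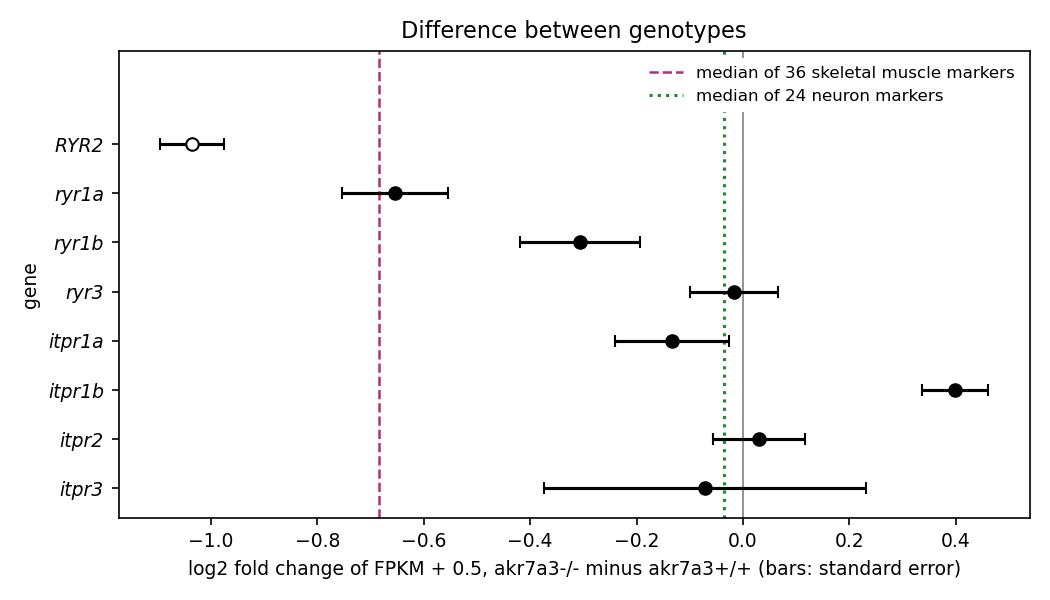
Log2 fold change of FPKM + 0.5 (akr7a3-/- minus akr7a3+/+) of the 8 release channel genes above the filter, with standard errors, beside the medians of the skeletal muscle markers (dashed, -0.68) and the neuron markers (dotted, -0.035). RYR2, drawn open because it was chosen for its fall and not tested, is at -1.04, ryr1a at -0.65 near the muscle median, and itpr1b at 0.40.

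Skeletal muscle transcripts were also lower in the mutant eyes. Whether the levels of ryr1a, ryr1b and RYR2 follow from this was not tested. Of 36 skeletal muscle markers tested, 18 were lower and 0 higher in akr7a3-/- (limma), beside 5.77% lower and 5.78% higher over all genes. Of the 36, 35 had a fold change below 0. The median log2 fold change was -0.68, beside -0.0080 over all genes. The most abundant were actc1b, a muscle actin, which fell by 0.90 on the log2 scale from 267 ± 74.7 to 139 ± 14.0 FPKM (SD, n = 6 each, limma adjusted p = 0.00411), mylpfa, a fast myosin light chain, which fell by 0.49 (adjusted p = 0.0208), and ckmb, a muscle creatine kinase, at -0.11 (adjusted p = 0.748). The list summed to 1025 to 2291 FPKM in akr7a3+/+ and to 895 to 1144 FPKM in akr7a3-/- eyes. The sums overlapped through akr7a3+/+ eye 6 alone, at 1025 FPKM, but the mean log2 level of the list, which the most abundant genes do not dominate, did not overlap (3.27 in that eye, at most 3.19 in the mutant eyes).

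Heart muscle, smooth muscle and neuronal markers were counted in the same way. The share called over all genes tested was 11.5%. Of the cardiac list only 4 genes passed the filter, none of them differed (median log2 fold change -0.43), and the list summed to no more than 26.3 FPKM in any eye. Its most abundant genes were 2 copies named actc1a, a cardiac actin, and tnnt2a, the cardiac troponin T, none above 10.6 FPKM on average in either genotype. Of 9 smooth muscle markers 1 was lower, with a median of 0.064 over the list. Of 24 neuron markers 1 was higher and 2 were lower, with a median log2 fold change of -0.035 and sums of 1851 to 2213 FPKM in akr7a3+/+ and 1808 to 2288 FPKM in akr7a3-/-, which overlap. snap25b and snap25a, synaptic membrane fusion genes, were at 0.038 and -0.059 (adjusted p = 0.779 and 0.654), and atp1a3b, a neuronal sodium pump, at 0.066 (adjusted p = 0.874).

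The retinal cell lists gave the following counts, to be read beside the 11.5% called over all genes tested. None of 18 amacrine and none of 15 ganglion cell markers differed, with medians of -0.049 and -0.0051. Of 13 bipolar cell markers 1 was higher and 2 lower, of 10 horizontal cell markers 1 was lower, and of 12 Mueller glia markers 1 was higher, with medians of -0.17, -0.22 and 0.14. Of 15 rod markers 2 were higher and 1 lower (median 0.36), and of 20 cone markers 8 were higher and 5 lower (median 0.21). Outside the neural retina, 0 of 19 lens markers (median -1.49), 1 higher of 8 red cell markers (median 0.81) and 3 lower of 14 pigment epithelium markers (median -0.093) were called. The lens median includes akr7a3-/- eye 1, where the mean log2 level of that list was 2.59. It was 6.71 to 8.18 in the other mutant eyes and 7.50 to 8.48 in the wild-type eyes.

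Whether a release channel followed muscle, neurons or rods from eye to eye was examined with the genotype mean removed from both sides, over 12 eyes and 24 pairs of gene and list. The 24 pairs include those of RYR2, whose p-values entered the adjustment but are not given. ryr1a followed the skeletal muscle markers, with r = 0.86 (permutation p = 0.0010, adjusted over the 24 pairs 0.024) and rho = 0.82 (permutation p = 0.00458, adjusted 0.110). The relation was r = 0.94 within akr7a3+/+ and 0.63 within akr7a3-/-. It was r = 0.66 without akr7a3+/+ eyes 3 and 6, the 2 farthest above and below their genotype mean in muscle RNA. With the neuron markers ryr1a had r = -0.35 (permutation p = 0.2885, adjusted 0.558) and rho = -0.20 (permutation p = 0.552, adjusted 0.631). That relation was r = -0.94 within akr7a3+/+ and 0.66 within akr7a3-/-. Within a genotype the relations to the 2 lists were thus alike in size. With muscle the sign was the same in both genotypes, and with neurons it was not. For RYR2 the same quantities are a description only, since a narrow spread in these eyes was part of why it was chosen and leaves little for a correlation to follow. They were r = -0.059 and rho = 0.056 with muscle, and r = 0.33 without the same 2 eyes. Within the genotypes RYR2 had r = -0.32 with muscle in akr7a3+/+ and 0.48 in akr7a3-/-. With the rod markers RYR2 had r = 0.26 and rho = 0.30, and r = 0.80 within akr7a3+/+ and -0.46 within akr7a3-/-.

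With the neuron markers RYR2 had r = 0.55 and rho = 0.55, again with no test, and r = 0.41 without akr7a3+/+ eye 6 and akr7a3-/- eye 4. Within the genotypes it was 0.39 in akr7a3+/+ and 0.68 in akr7a3-/-. ryr3 had r = 0.59 with the neuron markers (permutation p = 0.0643, adjusted 0.367; rho = 0.39, permutation p = 0.217, adjusted 0.400), and r = 0.22 without those 2 eyes. ryr1b had r = 0.30 with muscle (permutation p = 0.394, adjusted 0.558; rho = 0.31, permutation p = 0.363, adjusted 0.513). Of the IP3 receptors, itpr1a had r = 0.74 with muscle (permutation p = 0.0406, adjusted 0.357; rho = 0.62, permutation p = 0.0679, adjusted 0.399) and itpr3 had r = -0.68 with the rod markers (permutation p = 0.0447, adjusted 0.357; rho = -0.50, permutation p = 0.136, adjusted 0.400), neither of which passes. Of the 21 pairs that do not involve RYR2, only ryr1a with muscle passed on r, and 0 passed on rho.

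**Figure D3:**
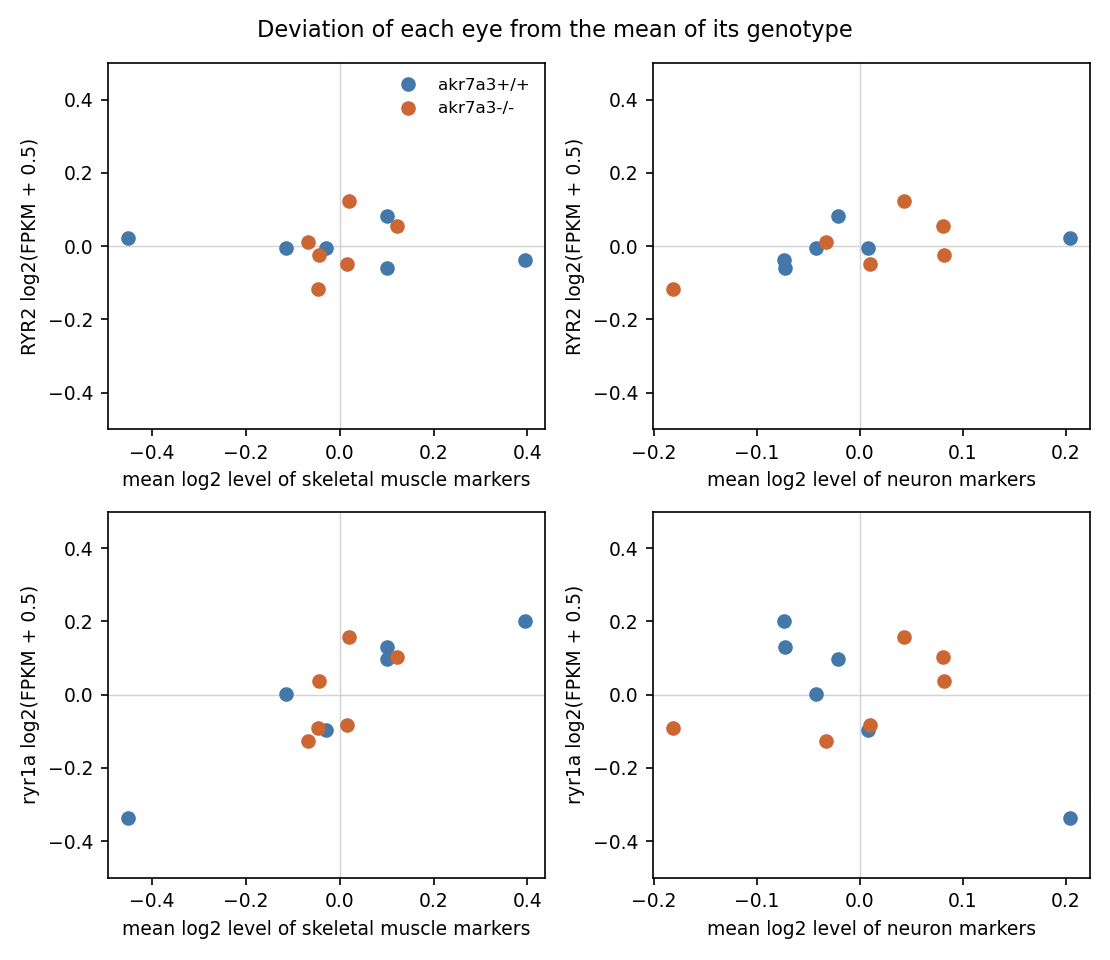
Deviation of each eye from its genotype mean in RYR2 (top) and ryr1a (bottom), log2(FPKM + 0.5), against the same deviation of the mean log2 level of the skeletal muscle markers (left) and the neuron markers (right). ryr1a climbs with the muscle markers (r = 0.86). The RYR2 panels are a description, because RYR2 was chosen for its fall with little spread, and have r = -0.059 with muscle and 0.55 with neurons. Within akr7a3+/+ and akr7a3-/- these were -0.32 and 0.48 with muscle, and 0.39 and 0.68 with neurons.

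Set against the muscle markers in the same eye, ryr1a hardly differed between genotypes. Its log2 level minus the mean log2 level of the muscle markers was -1.81 ± 0.118 in akr7a3+/+ and -1.81 ± 0.0907 in akr7a3-/- (SD, n = 6 each). For RYR2 the same quantity was -0.89 ± 0.3001 and -1.27 ± 0.0786, a difference of -0.38. For ryr1b, the second gene of the skeletal muscle pair, it was higher in akr7a3-/- by 0.351 (SD 0.284 in akr7a3+/+ and 0.164 in akr7a3-/-). ryr1b itself did not pass between genotypes (limma adjusted p = 0.102), and the split of reads between ryr1a and ryr1b is uncertain. These differences from the muscle markers were not tested. With the muscle marker mean as a covariate, an alternative chosen after seeing the data, the log2 fold change of ryr1a was -0.21 (SE 0.15, limma adjusted p = 0.665) and that of itpr1b 0.49 (SE 0.13, adjusted p = 0.161). RYR2 was at -1.05 (SE 0.13) in that fit, with no test. Since that mean itself differs by genotype, by -0.66 on the log2 scale with no overlap (exact permutation p = 0.00216), only 34 of 18473 genes were called with the covariate, and muscle content and genotype cannot be told apart in these eyes.

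The genes whose pattern over the 12 eyes was most like each member, with the genotype mean removed, were found by Pearson r, without a test. They were taken from 16839 genes with at least 1 FPKM on average. With so many genes and 12 eyes, high values can arise by chance, and RYR2 was chosen for a narrow spread. These genes are therefore a description only. For ryr1a these were obscnb (0.93), ttn.1 (0.92) and ttn.2 (0.91), which encode obscurin and titin, giant proteins of the sarcomere, and their own log2 fold changes of -0.70, -0.68 and -0.67 were close to that of ryr1a. For RYR2 they were hist1h4l (0.92), usp12a (0.91), gatad2ab (0.90), cacnb2b (0.89) and prkg2 (0.89), respectively a histone gene, a ubiquitin protease gene, a chromatin repressor gene, a beta subunit gene of voltage-gated calcium channels, and the gene of a cyclic GMP-dependent kinase. Their own log2 fold changes were -0.25, -0.033, 0.058, 0.17 and -1.19, in that order. prkg2 went from 20.04 ± 3.39 to 8.67 ± 2.35 FPKM in the mutant (SD, 6 eyes each, limma adjusted p = 0.000639). cacnb2b, at 77.3 ± 7.05 and 87.6 ± 10.1 FPKM, did not pass (limma adjusted p = 0.219).

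itpr3 had the closest companions of all members, prrg2 (0.98), anxa1c (0.98), an annexin gene, and dnajc5gb (0.97). itpr1b had the least close, gpr182 (0.85), cdkal1 (0.84) and bcam (0.82). The nearest genes were MYO1D, supt20 and dbnla for ryr1b (0.90 to 0.94), si:ch73-233f7.7, atcayb and PRRC2B for ryr3 (0.92 to 0.94), si:dkey-243i1.1, acp1 and dbi for itpr1a (0.94 to 0.95), and nt5c1bb, arrdc1a and si:ch1073-392o20.2 for itpr2 (0.89 to 0.90). Among the members themselves, the pair most alike was itpr1a and itpr3, at r = 0.74, and the paralogs ryr1a and ryr1b had r = 0.39. RYR2 had r between -0.35 and 0.26 with every other member tested.

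The machinery around the channels was described with 4 lists of calcium store genes, chosen with earlier results of these data known. Of their 104 tested genes 8 were higher and 8 lower in akr7a3-/-, or 15.4% called beside 11.5% over all genes. Proteins that bind or scaffold the receptors formed the first list, in which 2 of 40 were higher and 5 lower (median log2 fold change -0.13). The 5 lower were jph1a, a junctophilin that holds the store against the surface membrane of skeletal muscle (-0.58, from 4.11 ± 0.987 to 2.53 ± 0.244 FPKM, adjusted p = 0.0111), homer1b, a scaffold that binds both receptor families (-0.50, from 5.42 ± 0.187 to 3.69 ± 0.340 FPKM, adjusted p = 0.000483), srl, the calcium store protein sarcalumenin (-0.40, adjusted p = 0.0154), and the calmodulin genes calm2b (-0.30, adjusted p = 0.0110) and calm3a (ENSDARG00000021811, -0.27, adjusted p = 0.0127). A second gene named calm3a, ENSDARG00000100825, was at -0.23 and did not pass (adjusted p = 0.0871). The 2 higher were lrmp, whose mammalian product binds IP3 receptors (0.66, from 14.2 ± 1.67 to 23.0 ± 4.56 FPKM, adjusted p = 0.00478), and homer3a (0.74, adjusted p = 0.0323). Genotypes did not overlap in 6 of the 40, beside 6.62% over all genes tested, namely jph1a, homer1b, calm2b, calm3a (ENSDARG00000021811), lrmp and boka, the last of which did not pass the test (-0.30, adjusted p = 0.0741). For example homer1b was at 5.21 to 5.72 against 3.07 to 4.001 FPKM and lrmp at 11.2 to 16.0 against 17.7 to 29.4 FPKM. Calmodulin, the calcium sensor that binds the channels, was abundant, with calm3b, the gene of the list with the highest level, at 283 ± 24.7 and 305 ± 28.8 FPKM and not called (0.11, adjusted p = 0.462).

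Enzymes that make or remove inositol trisphosphate, with the G proteins that drive them, formed the second list. The counts for this list stand beside 11.5% called over all genes tested. Of its 22 genes 1 was higher, itpkca, a kinase that turns the messenger into another inositol phosphate (0.39, from 11.0 ± 2.14 to 14.3 ± 1.15 FPKM, adjusted p = 0.0391), and 0 were lower, with a median of 0.044. Fold changes ran from -0.59 (gna14, a G protein alpha subunit) to 0.53 (itpkcb, a kinase like itpkca), neither of which passed (adjusted p = 0.314 and 0.164; both were named after their values were seen). The most abundant were the phospholipase C genes plch2a, plch2b and plcg1, with log2 fold changes of 0.26, 0.034 and 0.18 (adjusted p = 0.201, 0.895 and 0.176).

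Of 17 genes that refill or buffer the store 1 was higher and 1 lower (median -0.11). Over all genes tested 5.78% were higher and 5.77% lower, so the count is near that share. The genes called encode pumps of 2 kinds. atp2a1l, of the skeletal muscle calcium pump family, fell by 0.74 on the log2 scale from 39.8 ± 11.3 to 22.9 ± 2.62 FPKM (adjusted p = 0.0137), and atp2a2b, of the pump family found in heart and most other cells, rose by 0.46 from 10.2 ± 1.13 to 14.2 ± 2.51 FPKM (adjusted p = 0.0159). The muscle pump gene atp2a1, the most abundant of the list at 215 ± 50.8 and 146 ± 32.3 FPKM, was at -0.55 and did not pass (adjusted p = 0.0617). The chaperone genes canx and calr3a were at 0.0090 and 0.020 (adjusted p = 0.947 and 0.923).

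L-type calcium channels, which couple to ryanodine receptors in muscle and drive transmitter release in photoreceptors, formed the last list. Of its 25 genes 4 were higher and 2 lower (median -0.14), beside 5.78% higher and 5.77% lower over all genes tested. The 2 lower encode parts of the skeletal muscle channel, cacna1sa (-0.58, from 2.63 ± 0.453 to 1.59 ± 0.245 FPKM, adjusted p = 0.00462) and cacnb1 (-0.47, adjusted p = 0.0294). The 4 higher encode the photoreceptor form and its auxiliary subunit, cacna1fa (0.70, from 38.1 ± 8.63 to 60.9 ± 4.25 FPKM, adjusted p = 0.00453), cacna1fb (0.34, adjusted p = 0.0171), 1 of 2 genes named cacna2d4a (ENSDARG00000103810, 0.57, adjusted p = 0.0390, the other, ENSDARG00000026855, at 0.46 with adjusted p = 0.129) and cacna2d4b (0.36, adjusted p = 0.0194). Skeletal muscle markers were lower in the same eyes (median -0.68), and their part in the lower muscle genes of these lists was not tested. Of 15 rod markers 14 had a fold change above 0 and 1 below (median 0.36). Of 20 cone markers 8 were called higher and 5 lower (median 0.21). The part of rods and cones in the higher photoreceptor channel genes was not tested either.

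**Figure D4:**
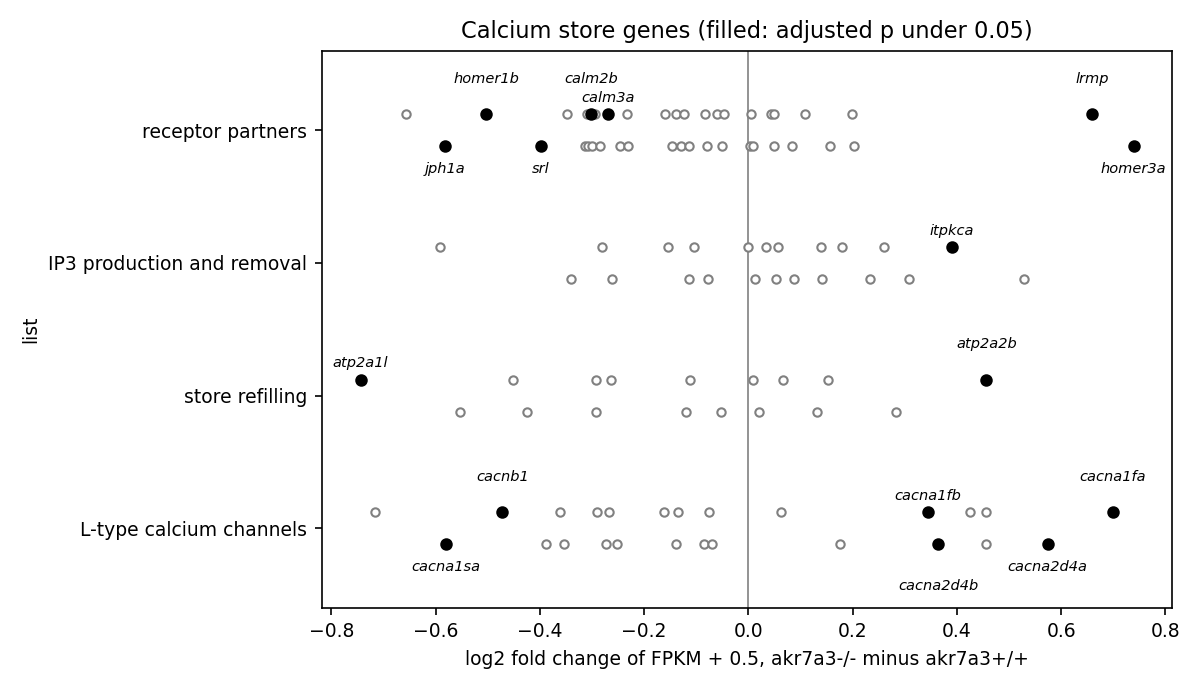
Log2 fold change of FPKM + 0.5 (akr7a3-/- minus akr7a3+/+) of each tested gene of 4 lists of calcium store genes, filled and named where the limma adjusted p was under 0.05. The lower genes include the muscle genes jph1a, atp2a1l and cacna1sa, and the higher ones include lrmp, atp2a2b and the photoreceptor channel genes cacna1fa and cacna1fb.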

How the data were processed

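Polyadenylated RNA of 12 eyes was sequenced from strand-specific DNBSEQ libraries. According to the methods and the submitters' processing notes, the authors mapped reads to GRCz11 with HISAT2 and counted them with featureCounts 2.0.3, and they deposited FPKM values of 25432 genes. Settings for reads shared between paralogs are not given in the sources used here, so a split between ryr1a and ryr1b or itpr1a and itpr1b is uncertain. Library totals, gene lengths and reads were worked out from the FPKM steps. The values of all 25432 genes then fitted whole reads (tolerance 0.02 of a read), 751 of these genes being at 0 in every eye. The smallest length that fitted was taken, so reads of genes with few reads can be too low. Summed reads lay slightly below the library total in every eye. No eyes were near-duplicates.

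The members and gene lists were chosen with earlier results of these data known. The 18473 genes that reached 0.5 FPKM in 6 or more eyes were fitted by genotype with limma 3.58.1 (R 4.3.3, variance trend) on log2(FPKM + 0.5), which understates changes of low genes. P-values were adjusted by Benjamini-Hochberg, threshold 0.05. Single genes had exact permutation tests, and relations 100000 permutations within genotype. Named were all members, called genes of the calcium lists (at most the 8 largest), the 3 most abundant genes of a list, and the genes most like each member (5 for RYR2, 3 for others). Of these, rho apart, the most abundant genes of the retinal, smooth muscle, lens, red cell and pigment epithelium lists are given as list counts only. Of the tested genes 84.5% had a chromosome in GRCz12tu, used for names and neighbours only. On simulated data with 18473 genes, 30 of 64 genes changed by 0.5 (log2), 59 of 65 changed by 1 and 65 of 68 changed by 2 were called. Of 159 calls there, 5 were wrong. Each gene was simulated independently, without the tissue differences that genes share in real eyes, so these rates need not hold for them. Alternatives were other pseudocounts, no filter, median-of-ratios and quantile scaling, limma-voom on the recovered reads, a replicate block and each eye left out. Added after seeing the data were the muscle marker mean as a covariate and a fit on only the 6 eyes with a shared replicate number.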

Additional observations from a re-analysis of the deposited data

Results flagged for a closer look

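One value stood apart from its group. ryr1b in akr7a3-/- eye 7 was 2.15 FPKM, and the gap to the next mutant eye (1.62 FPKM) took up 0.679 of the range of the 6 mutant eyes, above the critical value of Dixon's test for a group of that size. In total 18 groups of eyes were examined in this way, of which chance flags about 1 in 20. The same eye had the highest RYR2 and ryr1a levels of its genotype, at 3.27 and 2.17 FPKM, and it is the eye that decides the ryr1b call.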

How the results depend on the processing

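The calls of ryr1a and itpr1b were kept in 18 of 21 alternatives each, with log2 fold changes from -0.78 to -0.21 and from 0.38 to 0.49 over all 21. Both calls were lost with the replicate block, with only the eyes of a shared number and with the muscle covariate. The last 2 of these were added after seeing the data. Leaving out each eye gave 1 to 2 members called lower and 1 to 1 called higher, 7 to 11 lower and 5 to 9 higher calcium list genes, and 2 to 5 neuron and 15 to 22 muscle markers called. RYR2 moved from -1.04 to -1.13 and -0.94 with pseudocounts of 0.1 and 1, to -1.15 with voom on recovered reads, and between -1.06 and -1.01 with eyes left out.

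Replicate numbers 1, 4 and 7 occur in both genotypes, but same-numbered eyes did not deviate together (correlations 0.0849, -0.200 and 0.0691). The labels do not say whether same-numbered eyes share a day or a batch, and these correlations cannot decide it. With the number as a replicate block in those 6 eyes, 0 members were called higher and 0 lower, 0 calcium list genes higher and 0 lower, and 1 gene in all against 2133. The adjusted p was 0.225 for ryr1a (-0.64) and 0.199 for itpr1b (0.48). Without the block those 6 eyes, added after seeing the data, gave 126 genes and 0 members higher or lower (adjusted p = 0.106 and 0.0737). The muscle covariate gave 0 members higher and 0 lower. The block fit and the fit on shared numbers used 6 of the 12 eyes.

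Directions changed only for members and relations that did not pass or were not tested. ryr3 was 0.0072 with quantile normalization, 0.072 in the 6 eyes with or without the block and -0.041 to 0.023 with eyes left out. itpr1a was 0.29 with the muscle covariate, and itpr2 -0.025 to 0.066 with eyes left out. itpr3 was 0.099 in the 6 eyes with or without the block, 1.05 with the muscle covariate and -0.20 to 0.16 with eyes left out. Under median-of-ratios scaling r became 0.094 for RYR2 with muscle, 0.094 for itpr1b with rods, -0.12 for itpr2 with neurons and 0.023 for itpr2 with rods. Other relations moved under that scaling without a change of direction. Among them RYR2 was at 0.41 with neurons and 0.44 with rods, beside 0.55 and 0.26 in the main setting. ryr3 with neurons was at 0.38 and itpr3 with neurons at -0.70. Depth limits ryr2b, with as few as 11 reads in an eye.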
